A study of Mus musculus with 16 samples.

Results

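The insulin-like growth factor (IGF) genes examined here were 8 genes taken by symbol, namely the ligand Igf1, the receptors Igf1r, Insr and Igf2r, the adaptors Irs1 and Irs2, and the binding proteins Igfbp4 and Igfbp7. Of these, 7 had a row among the 20267 genes of the series, with 20 transcripts among 61144. Irs1 had no row in either table and was not analysed here. The rule took them by symbol and used no measured value, although earlier results of these data were known when they were chosen.

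IGF1 and insulin act through receptor tyrosine kinases, the products of Igf1r and Insr, which phosphorylate IRS adaptors and so engage PI3 kinase and Akt. Akt in turn restrains the FoxO transcription factors and activates mTORC1. The Igf2r product binds and clears IGF2, and secreted IGF binding proteins hold the ligand outside the cell. Microglia are a known source of IGF1 in the brain, and Igf1 is among the genes often listed for disease-associated microglia.

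RNA was sequenced from microglia of 16 mice on a C57BL/6J background, 4 in each of 4 groups. All mice were homozygous for a Mapk14 (p38α) allele with a loxP-flanked first exon (p38fl/fl), and all ate a diet with 400 ppm tamoxifen for 4 weeks from 5 months of age. WT p38+/+ mice were APPswe/PS1dE9-/-, p38fl/fl, Cx3cr1-creERT2-/-, and AD p38+/+ mice carried the APPswe/PS1dE9 transgene without Cre. WT p38KO and AD p38KO mice also had 1 Cx3cr1-creERT2 allele, so the knockout groups differ from their controls in that Cre allele at Cx3cr1 as well as in p38α, and these cannot be told apart. At about 11 months, some 10000 live CD11b+/P2ry12+ cells were sorted per mouse, and the libraries came from the 4 mice with the highest RNA integrity of 6 processed per genotype. By the labels, 11 of the mice were male and 5 female.

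Values are counts per 1000000 assigned reads (CPM), in which 1 read was worth 0.0609 to 0.0814 CPM and 3 reads, taken as the floor of detection, 0.183 to 0.244 CPM. The estimated depth was 12.3 to 16.4 assigned reads for each CPM. Mapk14-202, a p38α transcript taken to check the knockout with earlier results of these data known, lay between 47.1 and 82.6 CPM in the 8 p38+/+ libraries and between 0.0574 and 0.248 CPM in the 8 p38KO libraries. The summed CPM of 10 microglial markers was 56426 to 67197 in all 16 libraries, that of 9 endothelial and mural markers 16.9 to 48.3, and that of 9 neuronal markers 1.01 to 7.07. The sum of 10 astrocyte markers was 165 to 289 CPM, of which Slc1a3 gave 132 to 266, and that of 9 oligodendrocyte markers was 182 to 272 CPM, led by Cnp (96.4 to 125) and Mbp (57.8 to 121). AD p38KO libraries had the fewest genes detected (15467 to 16831, against 16970 to 18034 in the other 12). A gene had to reach 1 CPM in 4 or more libraries to be tested, which 13912 did. These were compared on log2(CPM + 0.5) with limma (two-sided, Benjamini-Hochberg adjustment over all tested genes), and called where the adjusted p was under 0.05. Of the 7 members with a row, 5 passed this filter. Log2 fold changes below are on the log2(CPM + 0.5) scale, which understates the change of low genes. In sorted cells measured in bulk, fewer cells that express a gene and less RNA per cell cannot be told apart.

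Igf1 (ENSMUSG00000020053, GRCm38 chromosome 10, 87858265 to 87937042, + strand) codes for the secreted growth factor. The gene begins with alternative leader exons, which give different signal peptides, and a 52-base exon near the 3′ end of the coding sequence is either skipped or included. Its inclusion changes the reading frame of the E peptide, the C-terminal extension of the precursor. The transcripts also differ in where they begin and end, so their counts do not rest on the leader and alternative exons alone. The sequences of the leader exons, the alternative exon and its junctions mark only which leader is used and whether that exon is included. They were taken from the GENCODE M21 transcripts and are read 5′ to 3′ on the + strand. Capitals mark the start codon in the coding parts of both leader exons, which lie at chr10:87859350-87859412 and chr10:87861371-87861385.
Leader exon 1, coding part: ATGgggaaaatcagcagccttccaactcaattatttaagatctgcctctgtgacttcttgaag
Leader exon 2, coding part: ATGaccgcacctgca
The alternative exon lies at chr10:87915298-87915349 and is given in capitals. In the 30-base junctions, capitals mark the 15 bases that follow the splice.
Alternative exon: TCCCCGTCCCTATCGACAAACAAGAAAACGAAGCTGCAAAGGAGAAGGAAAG
Junction without it: cccaagactcagaagGAAGTACATTTGAAG
Junction with it: cccaagactcagaagTCCCCGTCCCTATCG

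Igf1 was higher in AD than in WT microglia in both p38 genotypes, by a log2 fold change of 3.96 in p38+/+ and 4.50 in p38KO mice, and was the only member called in any comparison. In WT p38+/+ mice 1 to 4 it was 0.217, 2.68, 1.52 and 2.44 CPM, and in WT p38KO mice 0.976, 2.17, 0.144 and 0.143 CPM. The last pair of values corresponds to 2 reads each and lies under the floor. In AD p38+/+ mice 1 to 4 it was 80.7, 19.9, 31.3 and 14.6 CPM, and in AD p38KO mice 23.3, 35.4, 36.1 and 13.1 CPM. Every AD library thus lay above every WT library, with AD p38+/+ mouse 1 far above the rest.

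In p38+/+ mice the group mean was 1.71 ± 1.12 CPM for WT and 36.6 ± 30.2 CPM for AD (SD, n = 4 each). In p38KO mice it was 0.858 ± 0.957 CPM for WT and 26.97 ± 10.98 CPM for AD (SD, n = 4 each). The mean in AD was 21.4 times that in WT for p38+/+ mice and 31.5 times for p38KO mice. These ratios rest in part on single libraries, and were 12.8 without AD p38+/+ mouse 1 and 64.0 without WT p38KO mouse 2. In the limma fit the log2 fold change was 3.96 (SE 0.584, 95% interval 2.73 to 5.19, adjusted p = 0.00406) in p38+/+ mice. In p38KO mice it was 4.50 (SE 0.584, 95% interval 3.27 to 5.73, adjusted p = 0.00115), and over both genotypes, the APP/PS1 main effect, it was 4.23 (SE 0.413, adjusted p = 1.6e-05). The exact permutation test gave p = 0.0286 in each genotype, the smallest that 4 mice against 4 allow. Adding 0.1 CPM rather than 0.5 CPM before the log raised the p38KO value to 5.35 and the p38+/+ value to 4.41.

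Against this background, 0.359% of tested genes were called between AD and WT in p38+/+ mice, 0.323% in p38KO mice and 1.03% for the APP/PS1 main effect, and 1 of 5 tested members was called in each. Groups that did not overlap were found for 5.23% of tested genes in p38+/+ and 4.93% in p38KO mice, and again for Igf1 alone of the 5 members. The difference was present in libraries of either sex: male libraries ranged from 0.143 to 2.68 CPM in WT and from 13.1 to 36.1 CPM in AD mice, and the 5 female libraries from 0.217 to 2.17 CPM and from 23.3 to 80.7 CPM. Leaving out AD p38+/+ mouse 1, the library with the most Igf1, gave 3.48 (adjusted p = 0.0162) in p38+/+ mice.

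**Figure D1:**
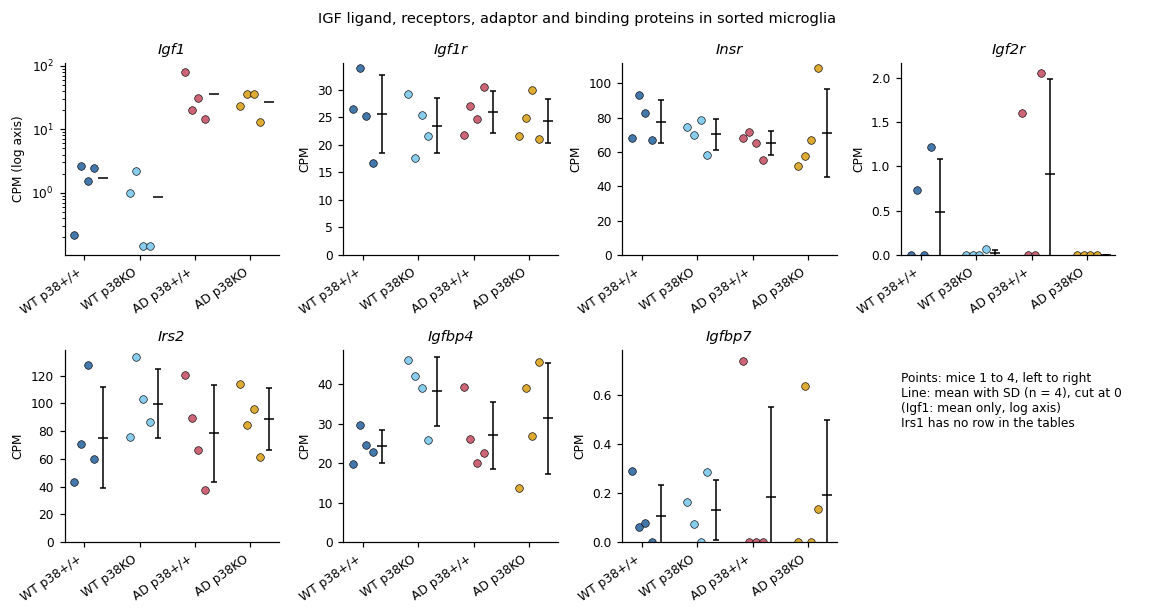
CPM of the 7 members with a row, by group. Points are mice 1 to 4 from left to right, and lines are the mean with its SD (n = 4); Igf1 is on a log axis with the mean only. The 8 AD libraries lie between 13.1 and 80.7 CPM for Igf1, above all 8 WT libraries, while the groups overlap for Igf1r, Insr, Irs2 and Igfbp4.

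Loss of p38α came with no called change in Igf1. The log2 fold change of p38KO against p38+/+ was -0.76 (95% interval -1.99 to 0.47, adjusted p = 1) in WT and -0.23 (95% interval -1.45 to 1.00, adjusted p = 0.970) in AD mice, by limma. In both backgrounds the groups overlapped, with exact permutation p = 0.257 and 0.771. The p38KO main effect was -0.49 (95% interval -1.36 to 0.37). The interaction, which asks whether the AD difference depends on p38α, was 0.54 (95% interval -1.20 to 2.27, adjusted p = 1.00). The interval in AD mice is wide, and runs from 0.365 to 2.00 times the p38+/+ level. In AD mice the sign turned to 0.26 without AD p38+/+ mouse 1, to 0.08 without AD p38KO mouse 4 and to 0.28 without AD p38KO mice 1 and 4.

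Of the genes tested, 0.00719% were called for p38KO in WT mice, 0.0503% in AD mice, 0.0791% for the p38KO main effect and 0.00% for the interaction, and none of the 5 members was called in these 4 comparisons. None reached an unadjusted limma p under 0.05 either. Groups did not overlap for 2.72% of genes in WT and 3.34% in AD mice, and for 0 of 5 members in each.

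Igf1 was read from 6 transcripts, of which 4 passed the filter. Igf1-202 (7052 bases, 153 codons) has leader exon 1 and skips the alternative exon. It held 57.3% of Igf1 CPM in AD mice with p38α and 59.4% in those without. Igf1-203 (1673 bases, 159 codons) has leader exon 1 and includes the alternative exon, and Igf1-205 (798 bases, 137 codons) has leader exon 2 and skips it. These held 18.8% and 12.4% in AD p38+/+ mice and 18.6% and 15.2% in AD p38KO mice. Igf1-201, with leader exon 2, ends at position 87915894, past the end of the alternative exon, and was counted as including that exon. It held 6.26% and 1.82% in the same groups.

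Transcripts with either leader exon rose in AD. Igf1-202 rose by a log2 of 3.65 (adjusted p = 0.0130, limma over 34322 transcripts) in p38+/+ and by 4.09 (adjusted p = 0.00575) in p38KO mice. Igf1-205 rose by 2.70 (adjusted p = 0.00531) and by 2.88 (adjusted p = 0.00363). Igf1-203 passed the test only for the APP/PS1 main effect, at 2.76 (adjusted p = 0.0166). In WT libraries Igf1-205 was at most 0.373 CPM and Igf1-203 at most 0.823 CPM. Both thus passed the filter of 1 CPM only through AD libraries, where they were high, and their calls are a description. For the APP/PS1 main effect 3 of the 14 tested member transcripts were called, Igf1-203 and Igf1-205 included, with 2 in each genotype. Of all tested transcripts, 0.379%, 0.122% and 0.0728% were called for the main effect, p38+/+ and p38KO mice. No member transcript was called for the p38KO main effect (limma, 1 of 14 at an unadjusted p under 0.05), where 0.166% of all transcripts were.

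The share of Igf1 CPM with leader exon 1 was 76.9, 80.4, 77.9 and 67.7% in AD p38+/+ mice 1 to 4, and 75.4, 78.8, 80.3 and 75.0% in AD p38KO mice. The groups overlapped (75.7 ± 5.55% and 77.4 ± 2.61%, SD, n = 4 each, exact permutation p = 0.743). The share that included the alternative exon was 26.3, 26.2, 21.4 and 24.6% in AD p38+/+ and 33.1, 24.6, 15.5 and 0.241% in AD p38KO mice. It spread far more in AD p38KO mice, where mouse 4 had almost none, and the means did not differ beyond that spread (24.6 ± 2.29% and 18.4 ± 14.1%, SD, n = 4 each, exact permutation p = 0.486). In the 8 WT libraries, whose Igf1 reads were summed, the shares were 81.0% with leader exon 1 and 26.1% with the alternative exon. The split of reads between transcripts is the quantifier's estimate, since they overlap in sequence. Igf1-202 runs on to position 87937042, while Igf1-203, which reaches next farthest, ends at 87931801. Reads from that last stretch can count toward Igf1-202, and so toward leader exon 1, without holding a leader exon. All these shares are of reads and are not scaled by transcript length, which differs widely. They therefore do not rank the transcripts or leader exons by number of molecules.

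**Figure D2:**
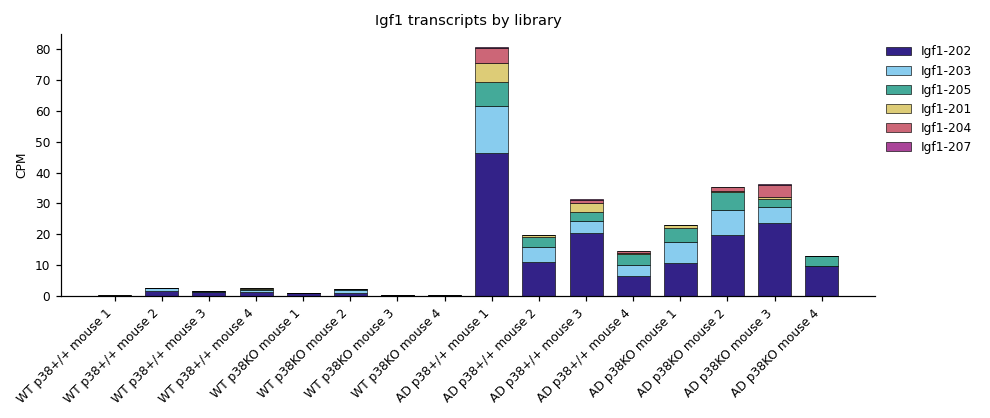
CPM of each Igf1 transcript in each of the 16 libraries, stacked so that a bar's height is the Igf1 total. Igf1-202 is the largest part of every AD bar, and AD p38KO mouse 4 has almost no Igf1-203.

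The genes whose log2(CPM + 0.5) followed Igf1 most closely over the 16 libraries, among 8673 genes of at least 10 CPM on average, were Cst7 (r = 0.955), Ank (r = 0.949), Gnas (r = 0.948), Axl (r = 0.932) and Gusb (r = 0.929). Cst7, a cystatin, rose from 11.2 ± 2.38 to 212 ± 126 CPM between WT and AD p38+/+ mice, and Axl, a receptor for apoptotic cells, from 37.6 ± 17.1 to 269 ± 154 CPM (SD, n = 4 each). Much of each r is the shared difference between AD and WT. Within the 8 AD libraries r was 0.605 for Cst7, 0.795 for Ank, 0.745 for Gnas, 0.883 for Axl and 0.402 for Gusb. Within the 8 WT libraries, where Igf1 was 0.143 to 2.68 CPM, r was 0.850, 0.297, 0.708, 0.243 and 0.719 in the same order.

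Markers of other cells were set beside Igf1. The summed CPM of 20 genes of disease-associated microglia, a list without Igf1, was 21466 to 27928 in WT and 30063 to 37151 in AD libraries, and so did not overlap. Ctsd gave most of this sum, at 14650 to 25054 CPM. Genes of lower level, such as Axl (25.1 to 499 CPM), weigh little in it. The sum of 10 markers of border-associated macrophages, which also make Igf1, was 25.5 to 143 CPM in WT and 34.9 to 163 CPM in AD libraries. AD p38+/+ mouse 1 had both the highest macrophage sum and the highest Igf1. WT p38KO mouse 1 had the next highest macrophage sum, 143 CPM, with 0.976 CPM of Igf1. On the log2 scale, Igf1 and the macrophage sum had r = 0.652 (Spearman's rho 0.405, exact permutation p = 0.0796 and 0.327, n = 8) within the AD libraries. Without the 2 libraries farthest from the median log2 sum, AD p38+/+ mouse 4 and AD p38KO mouse 1, r was 0.643. That value keeps AD p38+/+ mouse 1, so it does not show how far r rests on that mouse. Within the WT libraries r was -0.19 (rho -0.048, exact permutation p = 0.660 and 0.935, n = 8), and 0.179 without 2. For the sum of disease-associated genes r was 0.530 (rho 0.333, exact permutation p = 0.182 and 0.428, n = 8) in AD. Here r was 0.332 without the 2 libraries farthest from the median of that sum, AD p38+/+ mouse 1 and AD p38KO mouse 1. In WT it was 0.312 (rho 0.167, exact permutation p = 0.555 and 0.703, n = 8), and 0.0012 without 2. Over these 4 relations the adjusted p was 0.318 or more. The part of either cell state or cell type in the level of Igf1 was not tested.

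The receptors of IGF1 and insulin were present in every library and did not pass the test in any comparison. Igf1r (ENSMUSG00000005533, chromosome 7, 67952827 to 68233668, + strand), the IGF1 receptor, was 26.6, 34.02, 25.2 and 16.8 CPM in WT p38+/+ mice 1 to 4, against 29.3, 17.6, 25.4 and 21.7 CPM in WT p38KO mice. In AD p38+/+ mice it was 21.7, 27.0, 24.6 and 30.6 CPM, against 21.6, 24.8, 29.9 and 21.0 CPM in AD p38KO mice. The 4 groups overlapped. The log2 fold change of AD against WT was 0.05 (95% interval -0.39 to 0.50, adjusted p = 0.998) in p38+/+ and 0.06 (95% interval -0.39 to 0.50, adjusted p = 0.958) in p38KO mice. Its coding transcript Igf1r-201 held between 79.9% and 90.2% of its CPM in the 4 groups, and the rest went to 5 retained-intron transcripts, of which Igf1r-203 held at most 9.05% and Igf1r-204 at most 7.92%.

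Insr (ENSMUSG00000005534, chromosome 8, 3122061 to 3279617, - strand), the insulin receptor, was 68.2, 93.1, 82.6 and 66.8 CPM in WT p38+/+ mice, against 74.4, 70.2, 78.6 and 58.0 CPM in WT p38KO mice. It was 68.1, 71.8, 65.1 and 55.5 CPM in AD p38+/+ mice, against 51.7, 57.8, 66.8 and 108.7 CPM in AD p38KO mice. AD p38KO mouse 4 was the highest of all 16 libraries, and the other 3 of its group were among the lower ones. The log2 fold change of AD against WT was -0.25 (95% interval -0.64 to 0.15, adjusted p = 0.889) in p38+/+ and -0.03 (95% interval -0.43 to 0.37, adjusted p = 0.9746) in p38KO mice.

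Most Insr reads were not assigned to the coding transcript. Insr-202, a 1675-base retained-intron transcript of the first exons, held 48.3% to 59.9% of Insr CPM in the 4 groups, and the coding Insr-201 (9355 bases) held 26.3% to 32.1%. The high value of AD p38KO mouse 4 lay in Insr-204, a retained-intron transcript of 1 exon and 4019 bases. It was 45.6 CPM there, against 6.54, 8.92 and 11.2 CPM in the other AD p38KO mice. Without Insr-204 the 4 AD p38KO libraries were 45.2 to 63.1 CPM, and AD p38+/+ libraries 50.6 to 61.8 CPM. Over all genes, retained-intron transcripts took 5.70% of CPM in AD p38KO mouse 4 and 4.39% to 5.73% in the other AD and WT libraries. Whether reads of these retained-intron transcripts came from unspliced RNA was not tested.

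**Figure D3:**
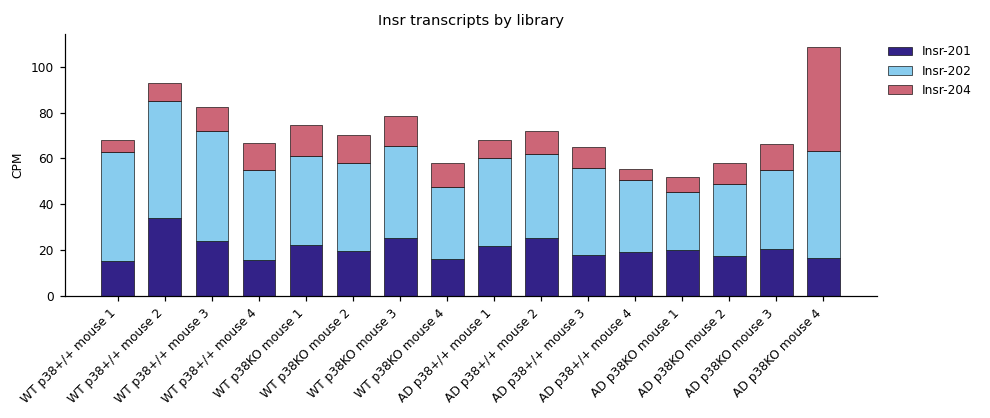
CPM of the 3 Insr transcripts in each of the 16 libraries, stacked. The coding Insr-201 stays between 15.1 and 33.8 CPM, and Insr-204 reaches 45.6 CPM in AD p38KO mouse 4.

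Igf2r (ENSMUSG00000023830, chromosome 17, 12682406 to 12769664, - strand), the receptor that removes IGF2, was too low to be tested. It was 0 in 11 libraries and 1 read in 1, and reached 12 to 29 reads in 4 libraries, namely WT p38+/+ mice 2 and 4 (0.730 and 1.22 CPM) and AD p38+/+ mice 1 and 4 (1.61 and 2.06 CPM). It did not reach the floor in any p38KO library, and no permutation test is given for it.

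Irs2 (ENSMUSG00000038894, chromosome 8, 10984681 to 11008458, - strand), the adaptor downstream of both receptors, was 43.3, 70.4, 128 and 60.0 CPM in WT p38+/+ mice, against 76.1, 134, 103 and 86.6 CPM in WT p38KO mice. In AD p38+/+ mice it was 120, 89.3, 66.2 and 37.7 CPM, against 114.1, 84.1, 96.2 and 61.1 CPM in AD p38KO mice. The groups overlapped, with a wide spread in both p38+/+ groups. The p38KO main effect was 0.38 (95% interval -0.12 to 0.87, adjusted p = 0.846) and the APP/PS1 main effect -0.06 (95% interval -0.55 to 0.43, adjusted p = 0.953). The gene 9530052E02Rik overlaps Irs2 on the other strand, and the counting is not stated to use strand, so reads of the pair cannot be told apart.

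Igfbp4 (ENSMUSG00000017493, chromosome 11, 99041244 to 99054392, + strand), a secreted protein that binds and withholds IGFs, was 19.7, 29.6, 24.7 and 22.7 CPM in WT p38+/+ mice, against 46.05, 41.9, 38.9 and 25.9 CPM in WT p38KO mice. In 3 of 4 WT p38KO mice it was above every WT p38+/+ mouse. The log2 fold change was 0.63 (95% interval -0.0078 to 1.27, adjusted p = 1 by limma), and the exact permutation test gave p = 0.0571. In AD p38+/+ mice it was 39.3, 26.1, 19.9 and 22.6 CPM, against 13.8, 38.9, 26.9 and 45.7 CPM in AD p38KO mice, and these groups overlapped (0.13, 95% interval -0.51 to 0.77, adjusted p = 0.968). AD against WT was 0.12 (95% interval -0.52 to 0.76, adjusted p = 0.998) in p38+/+ and -0.38 (95% interval -1.02 to 0.26, adjusted p = 0.730) in p38KO mice. The coding Igfbp4-201 held 77.4% to 86.2% of its CPM and the noncoding Igfbp4-203 the rest.

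Igfbp7 (ENSMUSG00000036256, chromosome 5, 77349240 to 77408041, - strand), a related protein that is abundant in vessels, was under 1 CPM in every library (highest 0.736 CPM), was above the floor in 4 and was not tested. Its end overlaps Polr2b, and without a stated strand the reads of the pair cannot be told apart. Endothelial and mural markers were likewise low in these sorted cells.

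**Figure D4:**
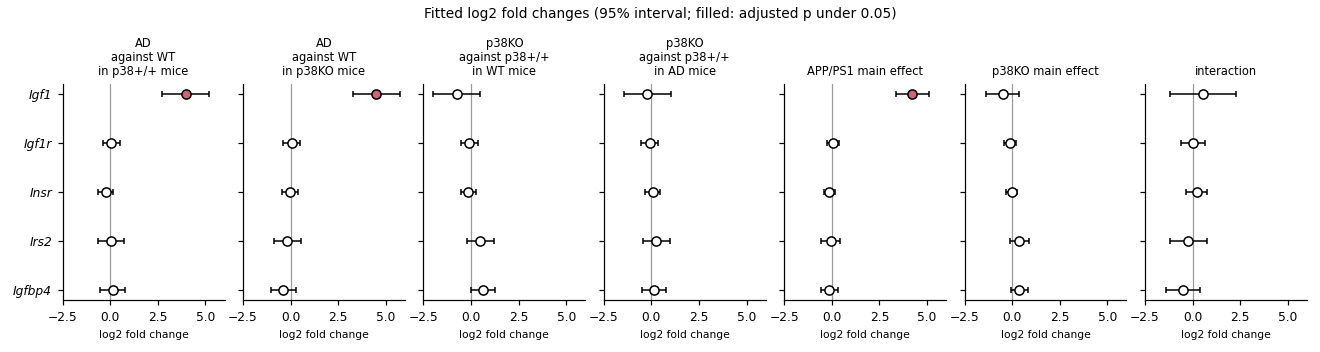
Fitted log2 fold change of the 5 tested members in the 7 comparisons, with 95% intervals; filled points passed the test. The 3 filled points are Igf1 in AD against WT, at 3.96, 4.50 and 4.23, and all other intervals cross 0.

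Compared per length, as CPM per kilobase of protein-coding transcript, the order of the members in WT p38+/+ mice was Irs2 (11.9 ± 5.81), Igfbp4 (5.39 ± 1.04), Insr (2.37 ± 0.945), Igf1r (1.80 ± 0.619), Igf1 (0.705 ± 0.477), Igfbp7 (0.0947 ± 0.114) and Igf2r (0.0549 ± 0.0673) (SD, n = 4). Below Igfbp4, each member overlapped with the next in this order. In WT p38KO mice the order of the first 5 was the same, from Irs2 (15.8 ± 3.98) to Igf1 (0.343 ± 0.464). In AD p38+/+ mice the order began with Igf1 (15.2 ± 11.3) and Irs2 (12.4 ± 5.55), which overlapped, ahead of Igfbp4 (5.44 ± 1.60), which did not overlap with Igf1. In AD p38KO mice Irs2 (14.1 ± 3.52) stood above Igf1 (11.6 ± 4.48) and Igfbp4 (7.04 ± 3.17), and each overlapped with the next. On this scale Igf1 was below Igf1r and Insr by mean level in WT mice, and above them in every AD library (lowest 5.50, against at most 2.69 for Insr and 2.34 for Igf1r). The order against Insr depended on which transcripts were counted. With the retained-intron transcripts included, Insr was 18.8 to 40.9 CPM per kilobase in AD mice and lay above Igf1 in 7 of 8 AD libraries, while Igf1r, at most 4.32, stayed below Igf1 in all 8.

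The wider pathway was described with a list of 87 genes (ligands, receptors, binding proteins and their protease, adaptors, PI3 kinase, phosphatases, the Akt axis, FoxO factors and targets, and glucose transporters). Of these, 73 had a row and 63 were tested, the 5 members included. Igf1 was the only one called for the APP/PS1 main effect, beside 1.03% of all tested genes. None was called for the p38KO main effect, beside 0.0791% of all tested genes. At an unadjusted limma p under 0.05 for p38KO, 3 of the 63 were higher and 1 lower. Over all 13912 tested genes these counts were 377 and 444. The median log2 fold change of the list was -0.06 for the APP/PS1 main effect, beside -0.03 over all genes tested, and 0.03 for the p38KO main effect, beside -0.01. The list was compiled with earlier results of these data known, and its counts are a description.

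Downstream of the receptors, the most abundant genes were not called. Inpp5d, the phosphatase SHIP1 of microglia, had a mean of 1312 ± 268 CPM in WT p38+/+ mice, against 1260 ± 72.9 CPM in AD p38+/+ mice (SD, n = 4 each). Pik3cg, a PI3 kinase subunit of leukocytes, was 707 ± 42.6 and 606 ± 53.5 CPM in the same groups. Sgk1, a kinase related to Akt, was 1118 ± 175 and 1136 ± 205 CPM. For the APP/PS1 main effect their log2 fold changes were -0.00067 (Inpp5d), -0.16 (Pik3cg) and 0.08 (Sgk1), with adjusted p of 0.999, 0.459 and 0.842 by limma.

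Of 11 tested adaptors, 8 tested genes of PI3 kinase and 19 of the Akt axis, none was called for either main effect, with median log2 fold changes for the APP/PS1 main effect of -0.09, -0.13 and -0.05. The leading adaptors were Sh2b3 (-0.09, adjusted p = 0.783) and Crk (-0.20, adjusted p = 0.304). Pik3r1, the regulatory subunit that IRS proteins bind, was at -0.18 (adjusted p = 0.438), and Rptor, the mTORC1 scaffold, at -0.02 (adjusted p = 0.956). Foxo1, a target of Akt, was at -0.02 (adjusted p = 0.968), and Sesn1, a sestrin induced by FoxO factors, at -0.17 (adjusted p = 0.544). Slc2a5, the fructose transporter of microglia, was at -1.06 (95% interval -1.90 to -0.23, adjusted p = 0.274) with a wide spread in WT p38KO mice (667 ± 418 CPM, SD, n = 4). Htra1, a protease of IGF binding proteins, averaged 0.733 CPM (-0.10, adjusted p = 0.963).

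For the APP/PS1 main effect, small p-values among pathway genes that are not members went to Slc2a1, the glucose transporter GLUT1, at 0.31 (adjusted p = 0.104), and Mlst8, an mTOR subunit, at -0.61 (adjusted p = 0.139). Neither passed the test. Slc2a1 passed it with sex as a covariate and without WT p38+/+ mouse 1. For the p38KO main effect the smallest went to Sos1 (0.91, adjusted p = 0.724), Sos2 (0.66, adjusted p = 0.788), exchange factors for Ras, and Pik3ca (0.73, adjusted p = 0.817), a catalytic PI3 kinase subunit.

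Among the ligands, Igf2 was at most 4.26 CPM and did not pass the test (APP/PS1 main effect 0.72, adjusted p = 0.585), and neither Ins1 nor Ins2, the insulin genes, had a row. Igfbp2, the next binding protein by level, was 1.30, 2.56, 1.06 and 0.578 CPM in WT p38+/+ and 3.82, 3.03, 1.22 and 1.79 CPM in WT p38KO mice. It was 3.68, 4.96, 4.995 and 2.55 CPM in AD p38+/+ mice, against 1.13, 1.35, 0.311 and 0 CPM in AD p38KO mice. These groups did not overlap (exact permutation p = 0.0286), which also held for 3.34% of all tested genes between them. The log2 fold change was -2.07 (95% interval -3.03 to -1.12) and did not pass the test (adjusted p = 0.197 by limma). The interaction was -2.75 (95% interval -4.10 to -1.40, adjusted p = 0.735). The Igfbp2 values correspond to 36 to 72 reads in AD p38+/+ and 0 to 17 in AD p38KO libraries, the group with the fewest genes detected. Of 10 astrocyte markers, 1 was likewise lower in AD p38KO mice without overlap, namely Slco1c1 at 1.67, 3.10, 1.13 and 2.84 against 0, 0.318, 0 and 0 CPM, and 9 overlapped. Aqp4 was 0 in all 4 AD p38KO libraries and in 2 of 4 AD p38+/+ libraries, and Gfap reached 17.5 CPM in AD p38KO against 9.57 CPM in AD p38+/+ mice. The summed astrocyte markers were 166 to 236 CPM in AD p38+/+ and 165 to 202 CPM in AD p38KO mice, and their part in the Igfbp2 difference was not tested.

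**Figure D5:**
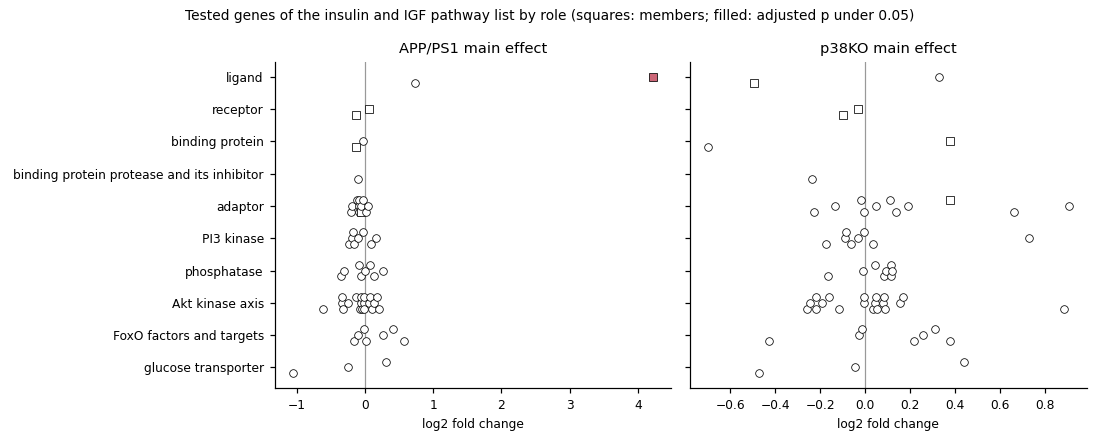
Log2 fold change of the 63 tested pathway genes by role, for the APP/PS1 main effect (left) and the p38KO main effect (right), on different horizontal scales. Squares are the members, and filled symbols passed the test. Igf1, at 4.23 on the left, is the only filled symbol, and no symbol is filled on the right.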

How the data were processed

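Microglial RNA from 16 mice was analysed as 4 groups of 4, set by the labels. The authors aligned the reads with STAR and quantified them against mm10 and Ensembl release 100 transcripts in Partek Flow 10.0.22.0828. The deposited values are CPM, with 0.0001 added by the authors to each value, which was subtracted here. Whether strand was used is not given in the sources used here. All 16 columns of each table were mapped, and 0 were left over. Read counts could not be recovered, since only 73.6 to 79.8% of low values came out whole (tolerance 0.05 reads), so no count test was run. Depth and floors were estimated from the smallest step and cover counting error only.

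Features that reached 1 CPM in 4 libraries were fitted with limma 3.58.1 (R 4.3.3, trended empirical Bayes) on log2(CPM + 0.5), all 16 libraries together, with two-sided tests and 95% intervals. Single values were compared by an exact permutation test. Positions come from GENCODE M21, in which 19733 of 20267 symbols were found. The members, the lists and the tests were chosen with earlier results of these data known. Every member is named, as are pathway genes that were called, that had the smallest p in a main effect (3 each), or that were among the highest 2 by CPM in their role, and the 5 genes most like Igf1, except that 1 gene under this rule is not reported here. On simulated data the test recovered most changed genes at a log2 of 2 and fewer at a log2 of 1. Python 3.11.15 with pandas 2.3.3 served for tables, and matplotlib 3.10.9 for figures. Alternatives were pseudocounts of 0.1 and 1 CPM, no filter and a 5 CPM filter, other scalings, array weights, a fit of the compared groups alone, sex and the S0 label as covariates, the animal number as a block, the transcript table, and leaving out libraries. The replicates are separate mice.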

Additional observations from a re-analysis of the deposited data

Results flagged for a closer look

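In 75 groups of 4 libraries (tested members and their tested transcripts with any spread), 6 had a highest library that stood apart from the other 3 by Dixon's 95% criterion, where chance gives about 1 in 20. In AD p38+/+ mice, mouse 1 stood apart for Igf1-203 at 15.3 CPM and for Igf1-205 at 7.77 CPM. In AD p38KO mice, mouse 4 stood apart for Insr-204 at 45.6 CPM. In WT p38KO mice the highest Igf1-203 value was 0.792 CPM. In WT p38+/+ mice the highest Igf1r-203 value, a retained-intron transcript, was 3.29 CPM, and the highest Igf1-204 value was 0.00672 CPM, which is under the worth of 1 read. Igf1 as a gene did not meet the criterion in any group.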

How the results depend on the processing

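Igf1 was called in AD against WT under all 30 alternatives in each genotype, at log2 fold changes of 3.48 to 4.41 in p38+/+ and 3.95 to 5.35 in p38KO mice, and with each library left out in turn at 3.48 to 4.29 and 4.23 to 4.91. With the animal number as a replicate block the values were 3.96 (adjusted p = 0.00615) and 4.50 (adjusted p = 0.00241). Same-numbered mice did not deviate together (median r = -0.0107 over 24 pairs, 2 above 0.1), so the numbers were not treated as pairing, and the block changed no call of a member. Pathway genes called for the APP/PS1 main effect went from 1 to 2 under the block, with sex or with the S0 label as a covariate, and between 1 and 2 with a library left out; the cause was not tested. No other member was called in any alternative.

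Of 1342 recomputed values, which include counts and called fold changes, 57 changed sign. All of these were uncalled values near 0, at adjusted p of 0.905 or more by limma, and the cause was not tested. Array weights gave 0.13 for Igf1 and -0.053 for Insr (p38KO in AD), and -0.13 (AD, p38+/+) and 0.040 (interaction) for Irs2. Without AD p38KO mice 1 and 4 the p38KO value in AD was 0.28 for Igf1, 0.078 for Igf1r and -0.061 for Insr. For Igf1r, the S0 covariate gave -0.013 (AD, p38+/+), sex -0.018 (interaction), and the block with sex -0.13 (AD, p38KO), 0.084 (p38KO, WT), -0.039 (APP/PS1) and -0.18 (interaction). With each library left out in turn the ranges were as follows. For Igf1, p38KO in AD was -0.55 to 0.26. For Igf1r, AD was -0.13 to 0.20 in p38+/+ and -0.068 to 0.17 in p38KO, p38KO in WT was -0.29 to 0.043, APP/PS1 was -0.037 to 0.13 and the interaction -0.14 to 0.19. For Insr, AD in p38KO was -0.26 to 0.099, p38KO in AD -0.15 to 0.21, its main effect -0.14 to 0.034 and the interaction -0.010 to 0.34. For Irs2, AD in p38+/+ was -0.20 to 0.36, p38KO in AD -0.043 to 0.51, APP/PS1 -0.18 to 0.093 and the interaction -0.53 to 0.025. For Igfbp4, AD in p38+/+ was -0.072 to 0.25, p38KO in AD -0.097 to 0.47 and APP/PS1 -0.24 to 0.041. Depth limits Igfbp7, Igf2r where it was at 0 or 1 read, and Igf1 in WT p38+/+ mouse 1 and WT p38KO mice 3 and 4, at 2 or 3 reads.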
